A study of Mus musculus with 2 samples.

Results

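The transcription factor genes Klf4, Grhl1, Grhl3, Ovol1, Maf, Prdm1, Cebpa, Barx2 and Gata3 were examined in single-cell RNA sequencing (scRNA-seq) data of neonatal mouse epidermis. They were taken by symbol, as 9 of the 27998 genes in the count tables, and each symbol matched 1 row in both tables. The 2 libraries came from 2 male C57BL/6J mice at postnatal day 0, both Chrm3 KO (Chrm3 encodes a muscarinic acetylcholine receptor, M3). Epidermis was split from the dermis of back skin, dead cells were removed, and 3′ transcript tags were counted per cell with unique molecular identifiers (UMIs). Since both mice carried the KO and wild-type libraries were not analysed here, all comparisons below are between cell classes within KO epidermis and none is between genotypes.

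These 9 genes act at different points of keratinocyte (KC) differentiation. Basal KCs of the interfollicular epidermis (IFE) divide on the basement membrane, and their daughters switch from keratins 5 and 14 to keratins 1 and 10, then build the cornified envelope and the lipid barrier. Klf4 and Gata3 are zinc finger factors needed for a working skin barrier. Grhl1 and Grhl3 are grainyhead-like factors, of which Grhl1 controls desmosomal cadherins and Grhl3 barrier formation, wound closure and neural tube closure. Ovol1 is a zinc finger repressor that stops progenitor growth, and Prdm1 (Blimp1) is a repressor known in cornifying KCs, sebaceous gland and dermal papilla. Maf and Cebpa are basic leucine zipper factors, Cebpa being also a regulator of lipid-storing cells, and Barx2 is a homeobox factor of the hair follicle.

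After filtering, 7607 of 10816 barcodes (70.3%) were kept in KO mouse 1 and 11881 of 15867 (74.9%) in KO mouse 2, with median depths of 10480 and 10577 UMIs per cell. Of the kept barcodes, 34 occurred in both libraries. Chrm3 itself had 13 and 19 UMIs among the kept cells (0.137 and 0.128 CPM, the share of the summed UMIs on a scale of 1000000). The sources used here do not say where the deleted part lies relative to the 3′ tags, so this does not check the genotype. The cells formed 24 clusters, found without the 9 genes and named from other genes as "-like" classes. The IFE classes were resting basal (3902 cells), dividing basal (815), transition (1052), differentiated (286) and terminally differentiated (110). The summed level of 13 basal markers was 30460 and 29100 CPM in resting basal cells (mouse 1 and mouse 2), and 2203 and 2833 CPM in differentiated cells. The summed level of 15 suprabasal markers ran the other way, from 4247 and 5237 CPM in resting basal to 104900 and 104200 CPM in differentiated cells. The terminally differentiated class was led by Lce1 genes, which code for cornified envelope proteins, and its 16 terminal markers summed to 46830 and 48440 CPM. It also held 10200 and 11920 CPM of basal markers and 1892 and 1990 CPM of 14 division markers, so it was not a pure terminal class. Another 5 clusters (5286 cells, 27.1%) took no name. The largest of these (1547 cells) was nearest to the basal list and held 16070 CPM of Krt5 and Krt14, but was not part of the resting basal class. UMIs were summed per mouse and class, and classes were compared with edgeR's quasi-likelihood test over 12603 genes. A gene was called when its Benjamini-Hochberg adjusted p was under 0.05. Where the mice are said below to overlap or not between classes, the share of all genes without overlap was not counted. All 9 factors passed the filter on low counts, Grhl3 and Prdm1 through classes other than the resting basal one, where each had at most 10 UMIs per mouse. These 2 genes were thus tested only because other classes held more of them. Their calls and p-values against resting basal cells, counted among the 9 below, are description only. So are those of Prdm1 between differentiated and transition cells, the latter having 4 and 11 UMIs.

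The step from resting basal to transition cells, where Krt1 and Krt10 come on while Krt5 and Krt14 are kept, showed a rise of most of the factors. In this step 7 of the 9 rose, none fell, and Prdm1 and Gata3 were not called, while 17.0% of all genes tested were called higher and 34.7% were called in either direction. The median log2 fold change was 2.22 over the 9 factors and -0.02 over all genes. Grhl1, Ovol1, Cebpa and Barx2 rose with fitted log2 fold changes between 2.22 and 3.37, and Grhl3 from 3 UMIs in resting basal cells.

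Grhl1 was at 2.84 CPM in mouse 1 and 5.02 CPM in mouse 2 in resting basal cells, and at 44.4 and 37.2 CPM in transition cells. Both transition values lay far above both basal values, with a log2 fold change of 3.37 ± 0.23 (SE, adjusted p = 2.5e-09, edgeR). Its basal level overlapped that in melanocyte-like cells (3.24 and 5.84 CPM), a cell type in which free RNA from other cells can leave a few UMIs. That class joined a cluster of 893 cells with another of 272 cells, whose Krt5 and Krt14 summed to 478 and 3866 CPM. The smaller cluster thus held more keratin RNA. In the larger, Grhl1 was at 1.38 and 4.95 CPM. Ovol1 was at 8.24 and 9.72 CPM in resting basal cells and at 45.0 and 35.6 CPM in transition cells. The rise was 2.22 ± 0.20 on the log2 scale (edgeR adjusted p = 9.0e-08).

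Cebpa went from 37.0 and 28.0 CPM to 176 and 124 CPM (log2 fold change 2.28 ± 0.22, edgeR adjusted p = 2.2e-07). Barx2 went from 68.0 and 48.5 CPM to 314 and 219 CPM (2.27 ± 0.18, edgeR adjusted p = 1.1e-08). For both genes the mice did not overlap between the classes, although mouse 1 was the higher in each class. The share of cells with at least 1 Cebpa UMI rose from 31.0% and 24.0% of resting basal cells to 83.3% and 76.5% of transition cells. Cells were also thinned to 3000 UMIs, leaving out 305 shallower cells (among them 7 and 62 resting basal and 1 and 4 transition cells). These shares were then 10.95% and 7.40% against 38.0% and 30.1%, in the same order. The part of the cells left out was not tested. The share in melanocyte-like cells was 10.8% and 11.4% before thinning, and 2.59% and 3.21% after it. Cebpa was at 5.85 and 9.90 CPM in the larger melanocyte-like cluster and at 41.2 and 26.9 CPM in the smaller, keratin-richer cluster.

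Klf4 was already abundant in resting basal cells, at 358 and 322 CPM, and reached 581 and 472 CPM in transition cells. Its rise was the smallest of those called, 0.70 ± 0.12 on the log2 scale (edgeR adjusted p = 9.4e-05), and both mice showed it. Maf went from 7.20 and 7.29 CPM to 16.8 and 14.5 CPM (1.17 ± 0.22, edgeR adjusted p = 0.00030). With cells under 5% mitochondrial UMIs only, which kept 95 of 1422 and 508 of 2480 resting basal cells, the fold change of Maf was 1.02 and it was no longer called (edgeR adjusted p = 0.081).

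Grhl3 had few UMIs at any stage. In resting basal cells no UMI was seen in the 1422 cells of mouse 1, where 3 counts would be 0.208 CPM, and 3 UMIs were seen in the 2480 cells of mouse 2 (0.120 CPM). In transition cells it had 19 and 17 UMIs, or 2.99 and 1.77 CPM. Over both mice the ratio of transition to resting basal was 29.8, with an exact 95% counting interval of 9.40 to 151. The gene was called (edgeR adjusted p = 2.2e-05), its fitted fold change resting on the few basal UMIs. A Grhl3 UMI was found in 4.59% (95% exact binomial interval 2.79 to 7.07) and 2.67% (1.56 to 4.23) of transition cells, against none of 437 and 728 melanocyte-like cells. Intervals cover counting error only.

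Gata3 stood apart from this step. It had 168 and 137 CPM in resting basal cells, 162 and 138 CPM in dividing basal cells and 155 and 122 CPM in transition cells, and the ranges of the classes overlapped. The log2 fold change to transition was -0.07 ± 0.16 (edgeR adjusted p = 0.78). Prdm1 had 8 and 10 UMIs in resting basal cells and 4 and 11 in transition cells (0.554 and 0.398 CPM, then 0.630 and 1.15 CPM), levels close to the 1.08 and 0.973 CPM of melanocyte-like cells. No change of Prdm1 was detectable at this depth, the ratio being 2.07 with a counting interval of 0.969 to 4.34 and the edgeR adjusted p 0.28.

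**Figure D1:**
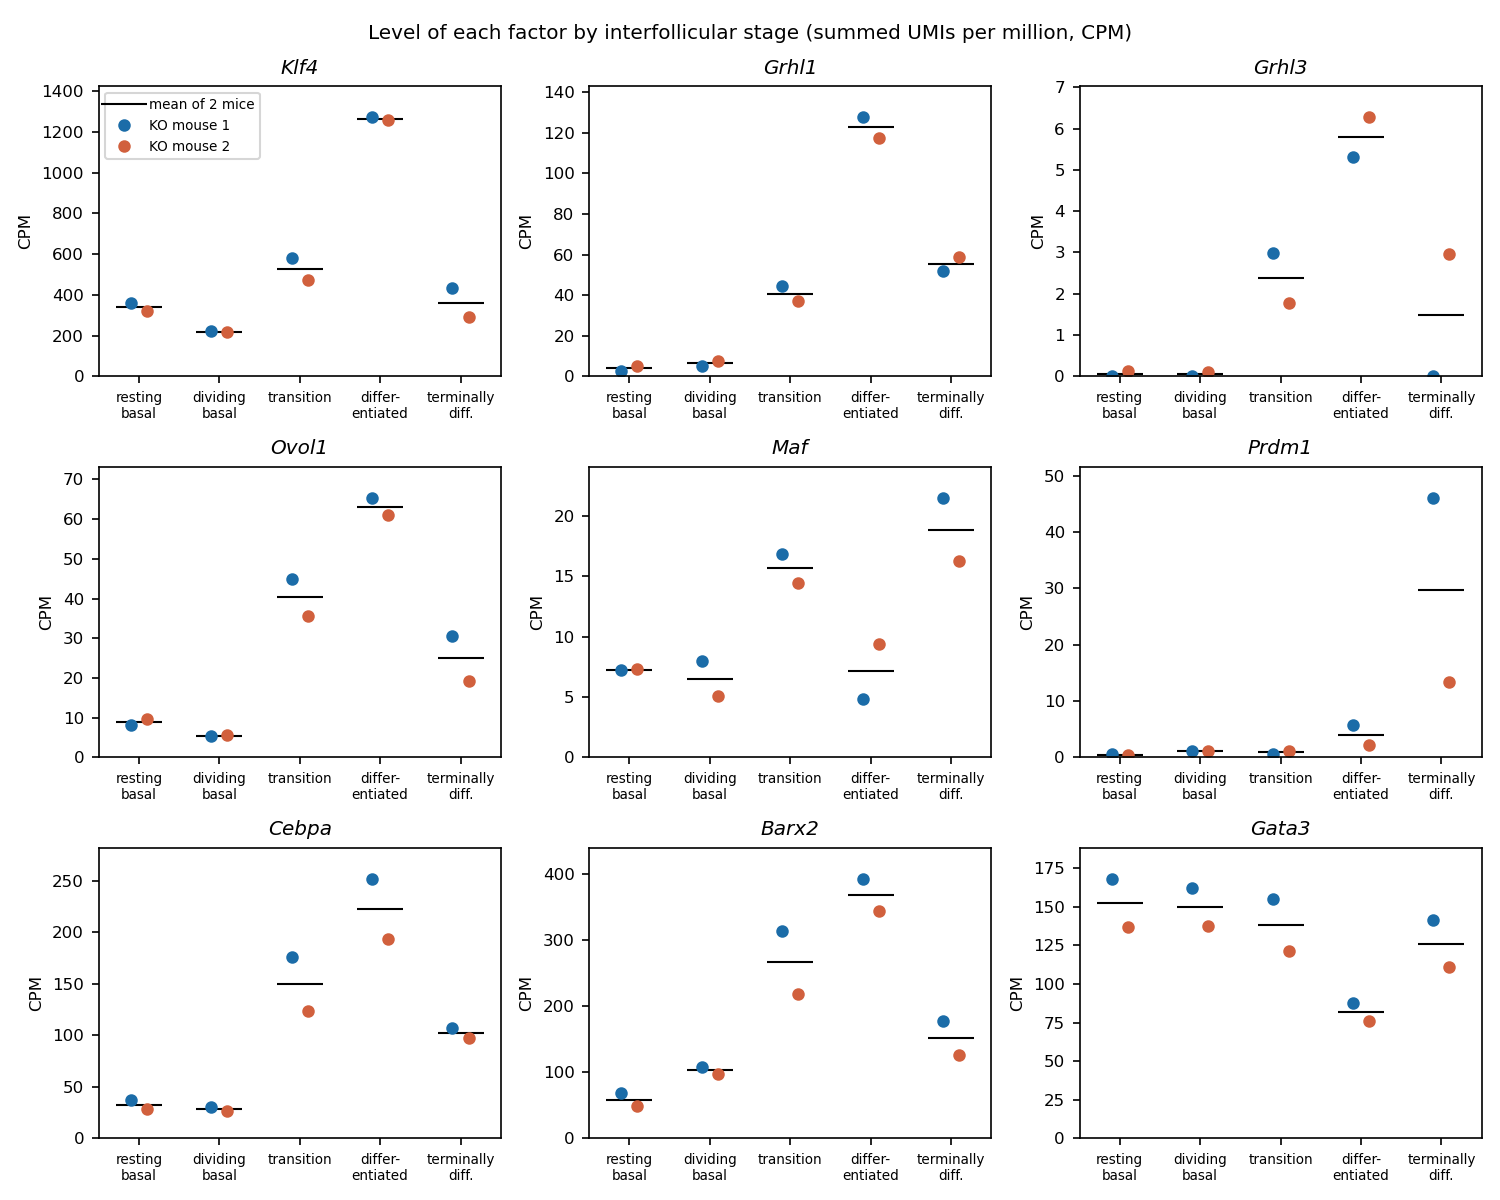
CPM (y axis, from 0) of each factor in the 5 IFE classes (x axis), with a point per KO mouse and a bar at the mean of 2 mice. By the mean, Klf4, Grhl1, Grhl3, Ovol1, Cebpa and Barx2 are highest in differentiated cells and Prdm1 and Maf in the terminally differentiated class. Maf there (7 and 11 UMIs, 21.5 and 16.2 CPM) overlaps transition cells (16.8 and 14.5 CPM). Gata3 is lowest in differentiated cells at 87.8 and 76.2 CPM.

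The stretches just before the transcription start are shown for Klf4, Grhl3 and Cebpa, which rose at this step from high, near-zero and intermediate basal levels, and for Prdm1, which did not. RefSeq promoter entries on GRCm38.p6 were found for 6 of the 9 factors, Ovol1, Maf and Barx2 having none in the table used. Each sequence is the 120 bases before the start, 5′ to 3′ on the gene's strand, with matches to a motif in capitals.
Klf4 (chr4:55532476-55532595, minus strand): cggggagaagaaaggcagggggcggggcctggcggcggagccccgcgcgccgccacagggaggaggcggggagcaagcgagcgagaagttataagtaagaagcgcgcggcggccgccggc
Grhl3 (chr4:135573633-135573752, minus strand): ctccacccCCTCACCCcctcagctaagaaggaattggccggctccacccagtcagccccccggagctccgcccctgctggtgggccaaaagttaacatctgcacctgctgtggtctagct
Cebpa (chr7:35119173-35119292, plus strand): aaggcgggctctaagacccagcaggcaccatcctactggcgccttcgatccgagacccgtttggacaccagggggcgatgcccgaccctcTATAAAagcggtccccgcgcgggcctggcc
Prdm1 (chr10:44458749-44458868, minus strand): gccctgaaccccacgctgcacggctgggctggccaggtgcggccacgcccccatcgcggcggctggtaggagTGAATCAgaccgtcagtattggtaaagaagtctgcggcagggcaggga
Motifs were searched on both strands of the 250 bases before the start of the 7 entries (2 for Grhl1) and of 32851 entries in all. The capitals mark a KLF-type box (CCNCACCC) in Grhl3, a TATA box (TATAAA) in Cebpa and the AP-1-type letters TGANTCA in Prdm1. N stands for any base, and the Prdm1 stretch reads TGAATCA. The KLF-type letters were present in 3 of the 7 entries (Grhl3, Cebpa and Gata3) and in 14.9% of all entries. The AP-1-type letters, with any base at N, were in 1 entry (6.75% of all) and the TATA letters in 1 (12.4% of all). The grainyhead letters AACCGGTT (0.116% of all), the C/EBP letters TTGCGCAA (0.164%) and the GATA letters AGATAA (9.99%) were in none of the 7, and the MAF half-site TGCTGA was in Gata3 alone (16.1% of all). A match is a string of letters and was not tested as a binding site.

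The step from transition to differentiated cells, where Krt5 and Krt14 are lost, split the factors into a rising and a falling group. Of the 9, 7 rose and 2 fell, and all were called, against 34.8% of all genes called, 17.8% higher and 17.0% lower. Klf4, Grhl1, Grhl3, Ovol1, Cebpa and Barx2 rose for a further time, Prdm1 rose for the first time, and Maf and Gata3 fell. The median log2 fold change was 0.87 over the 9 factors and -0.05 over all genes.

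Klf4 reached 1272 and 1256 CPM in differentiated cells, its highest level of all classes, and was found in all 135 and 151 cells. Its rise from transition was 1.48 ± 0.12 on the log2 scale (edgeR adjusted p = 1.2e-08), larger than its first rise. Grhl1 reached 128 and 118 CPM (1.81 ± 0.20, edgeR adjusted p = 6.3e-07). Grhl3 reached 5.32 and 6.28 CPM, from 21 and 28 UMIs (1.55 ± 0.42, edgeR adjusted p = 0.0083), and its ratio to transition was 2.58 with a counting interval of 1.65 to 4.09. A Grhl3 UMI was found in 14.1% (95% exact interval 8.69 to 21.1) and 16.6% (11.01 to 23.5) of differentiated cells, whose median depth of 25030 UMIs was above the 13460 UMIs of transition cells. In both mice all 3 genes were higher in differentiated than in transition cells.

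Ovol1, Cebpa and Barx2 rose less at this step than at the one before. Ovol1 was at 65.3 and 61.0 CPM (0.87 ± 0.19, edgeR adjusted p = 0.0017), Cebpa at 252 and 194 CPM (0.79 ± 0.22, adjusted p = 0.0074) and Barx2 at 392 and 343 CPM (0.68 ± 0.17, adjusted p = 0.0040). The mice did not overlap between the classes for any of these genes, which were already called at this step. Whether the first rise of a gene differed from its second was not tested.

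Prdm1 had 23 UMIs in 10 cells of mouse 1 and 10 UMIs in 6 cells of mouse 2 (5.82 and 2.24 CPM). Its rise from transition was 2.27 ± 0.64 on the log2 scale (edgeR adjusted p = 0.0091). This p is description only, since Prdm1 passed the filter through classes other than transition. The ratio of the pooled UMIs was 4.18 with a counting interval of 2.21 to 8.27. That interval takes the UMIs as independent, although several lay in the same cell, and leaves out the difference between the mice, so it is too narrow. Maf fell to 4.81 and 9.42 CPM, on either side of the resting basal values (-0.90 ± 0.27, edgeR adjusted p = 0.016), and the 2 mice differed by more than in any other IFE class but the terminal one. The fall of Maf was not called with cells under 5% mitochondrial UMIs (fold change -0.37, edgeR adjusted p = 0.58). Gata3 fell to 87.8 and 76.2 CPM (-0.53 ± 0.17, edgeR adjusted p = 0.019), below both transition values. Its call was lost with finer clustering (-0.23, edgeR adjusted p = 0.33) and when the terminal class was reduced to cells rich in loricrin (-0.46, adjusted p = 0.054).

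**Figure D2:**
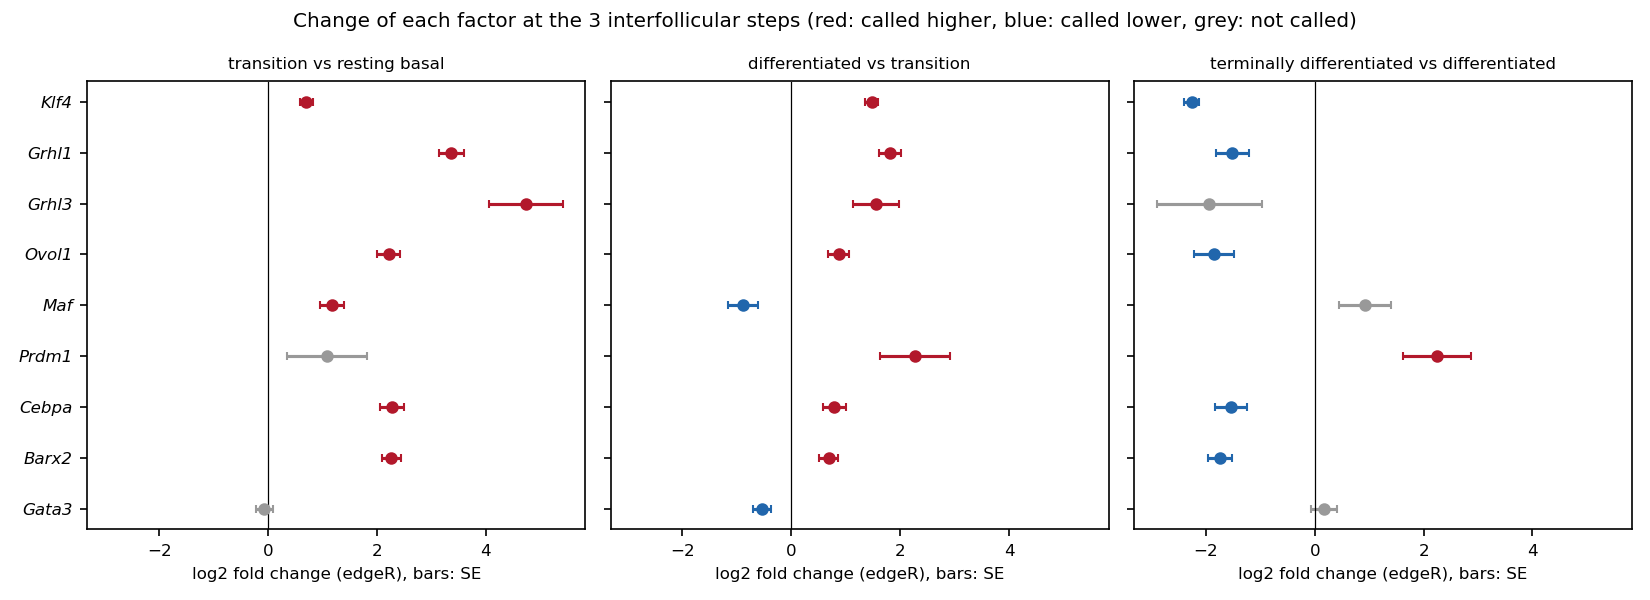
Log2 fold change of each factor (x axis, bars are the SE of the edgeR fit, 2 mice per class) at the 3 successive IFE steps. Most points lie right of 0 at the first and second step and left of 0 at the third, Prdm1 being the only one called higher at the third (2.24).

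In the terminally differentiated class most of the factors were lower again. Of the 9, 5 fell (Klf4, Grhl1, Ovol1, Cebpa and Barx2), Prdm1 rose, and Grhl3, Maf and Gata3 were not called, while 32.6% of all genes were called, 16.5% lower and 16.1% higher. Klf4 was at 432 and 291 CPM (-2.26 ± 0.14, edgeR adjusted p = 3.7e-10), Grhl1 at 52.1 and 59.1 CPM (-1.51 ± 0.30, adjusted p = 5.1e-04), Ovol1 at 30.7 and 19.2 CPM (-1.85 ± 0.37, adjusted p = 5.9e-04), Cebpa at 107 and 97.4 CPM (-1.54 ± 0.30, adjusted p = 5.0e-04) and Barx2 at 178 and 126 CPM (-1.74 ± 0.22, adjusted p = 5.4e-06). For each of these 5 genes both mice were below both differentiated values. Basal and division markers were higher in this class than in differentiated cells (basal markers 10200 and 11920 CPM against 2203 and 2833), and their part in these falls was not tested. Among the 18 and 16 cells in which Lor was at least 1% of UMIs, Klf4 was at 724 and 292 CPM and Barx2 at 199 and 76.1 CPM, still below the differentiated values in both mice. The fall of Ovol1 was not called in these cells (-1.48, edgeR adjusted p = 0.12).

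Prdm1 was at 46.0 and 13.3 CPM in the terminally differentiated class, from 15 UMIs in 11 of 48 cells and 9 UMIs in 8 of 62 cells. Both values exceeded the 5.82 and 2.24 CPM of differentiated cells, the log2 fold change was 2.24 ± 0.62 (edgeR adjusted p = 0.0088), and the ratio of the UMIs was 6.10 with a counting interval of 3.45 to 10.6. Prdm1 was most abundant in dermal-like cells, at 201 and 183 CPM. The 7 dermal markers summed to 9.20 and 2.95 CPM in the terminally differentiated class, 4 of them having any UMI, against 5310 and 4228 CPM in the dermal-like class. Hair follicle progenitor-like cells had 18.9 and 15.5 CPM of Prdm1. The 10 markers of that class summed to 2180 and 2592 CPM in the terminally differentiated class, against 1089 and 810 CPM in differentiated cells. They summed to more in resting basal (3136 and 3161 CPM) and transition cells (2990 and 2840 CPM), so this list does not mark follicle cells alone. The part of hair follicle progenitor-like cells in the rise was not tested. In the cells with at least 1% Lor, Prdm1 was at 83.9 and 12.7 CPM, from 10 UMIs in all. With cells under 5% mitochondrial UMIs the rise was not called (1.19, edgeR adjusted p = 0.27). Grhl3 had no UMI in the 48 cells of mouse 1, where 3 counts would be 9.20 CPM, and 2 UMIs in the 62 cells of mouse 2, so that a fall was not detectable at this depth (edgeR adjusted p = 0.14).

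Dividing basal cells differed from resting ones in 3 of the 9 factors. Barx2 rose, from 68.0 and 48.5 to 108 and 97.4 CPM (0.71 ± 0.18, edgeR adjusted p = 0.0073), and Klf4 and Ovol1 fell, with 6 factors not called, while 20.6% of all genes were called in either direction. Klf4 was at 221 and 217 CPM in dividing cells, below both resting values (-0.75 ± 0.12, edgeR adjusted p = 1.2e-04), and Ovol1 at 5.29 and 5.52 CPM (-0.84 ± 0.27, edgeR adjusted p = 0.035). None of the 3 was called with cells under 5% mitochondrial UMIs, where the log2 fold changes were 0.52 for Barx2, -0.52 for Klf4 and -0.98 for Ovol1 (edgeR adjusted p = 0.30, 0.058 and 0.11). At resolution 1.2 Ovol1 was not called (-0.55, edgeR adjusted p = 0.21) and Grhl1 was called higher (0.95, adjusted p = 0.031). The 3 clusters joined as resting basal were not alike in every factor. Klf4 ranged from 279 to 386 CPM over the clusters and mice, Barx2 from 44.8 to 69.7 CPM and Gata3 from 120 to 184 CPM, and all 3 Grhl3 UMIs lay in the cluster led by H19 and Igf2. Cebpa was at 25.7 and 22.4 CPM in the cluster led by Pltp and at 49.4 and 33.2 CPM in the one led by Pcsk2, and Ovol1 at 5.43 and 7.69 CPM in the former against 10.2 and 10.7 CPM in the latter, in both cases without overlap of the mice.

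A finer order came from ranking IFE cells by the share of Krt1 and Krt10 among Krt1, Krt10, Krt5 and Krt14 UMIs, cut into 7 bins. Onset was described as the first bin in which the mean of 2 mice reached 50% of the highest bin, with no test. Ovol1, Cebpa and Barx2 passed it at a share of 20 to 40%, Prdm1 at 40 to 60%, Klf4 at 60 to 80%, and Grhl1 and Grhl3 at 80 to 95%. Gata3 was above it from the first bin, and Maf from 10 to 20%. The bin in which Prdm1 passed it held 5 of its UMIs, as did the bins on either side, and 6.96% of its cells were of the terminally differentiated class. By class, Prdm1 in transition cells was at 2.99% of its highest stage. Klf4, Maf and Cebpa passed the 50% limit narrowly. Cebpa stood at 51.2% of its highest bin at 20 to 40%. In mouse 1 alone it was under the limit there, with 124 CPM against 250 CPM in the last bin. Ovol1 was under it there in mouse 2 alone, with 25.6 CPM against 55.5 CPM in the last bin. Klf4 stood at 48.7% of its highest bin at 40 to 60% and at 50.6% at 60 to 80%. Maf stood at 47.1% at shares up to 10% and at 51.9% at 10 to 20%. At 80 to 95%, where Grhl1 and Grhl3 passed the limit, 24.2% of the cells were of the terminally differentiated class.

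Barx2 stood at 21.1% of its highest bin at shares up to 10%, at 38.9% in the next bin and at 71.8% at 20 to 40%, where it had 307 and 197 CPM. Cebpa followed at 16.1%, 28.2% and 51.2%. Grhl1 came later, with 38.0 and 30.6 CPM (31.3% of its highest bin) at 20 to 40% and 67.1 and 73.8 CPM (64.2%) at 80 to 95%, before 114 and 106 CPM in the last bin. The mean of Grhl3 was higher in each bin than in the one before, from 0.105 and 0.169 CPM in the first through 2.44 and 1.98 CPM at 40 to 60% to 5.73 and 5.10 CPM in the last. Its UMIs in the 7 bins were 7, 5, 3, 5, 6, 13 and 52, so neighbouring bins between 10% and 80% rest on very few counts. Klf4 had 333 and 307 CPM in the first bin and 357 and 281 CPM in the second. It then had 492 and 407 CPM at 20 to 40%, 692 and 430 CPM at 40 to 60%, 586 and 581 CPM at 60 to 80%, 664 and 644 CPM at 80 to 95%, and 1184 and 1122 CPM in the last bin.

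Maf peaked at 20 to 40% in mouse 1 (22.6 CPM), whereas mouse 2 had 10.5 CPM there and its highest value, 12.3 CPM, at 60 to 80%. Ovol1 also differed between the mice in the bins from 20 to 60%, with 53.5 and 51.2 CPM in mouse 1 against 25.6 and 27.8 CPM in mouse 2. Gata3 stayed between 110 and 176 CPM up to a share of 95% and was at 93.6 and 83.8 CPM above it. Cells lay close to some bin edges, 923 of them within 2 points of the 10% edge. The mice filled the bins unevenly, with 161 and 753 cells at 10 to 20% and 66 and 210 cells at 20 to 40%. Melanocyte-like cells, with the smaller, keratin-richer cluster included, held 254 and 591 CPM of Krt1 and 460 and 772 CPM of Krt10. The part of such free keratin RNA in the placing of cells and in the differences between the mice was not tested.

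**Figure D3:**
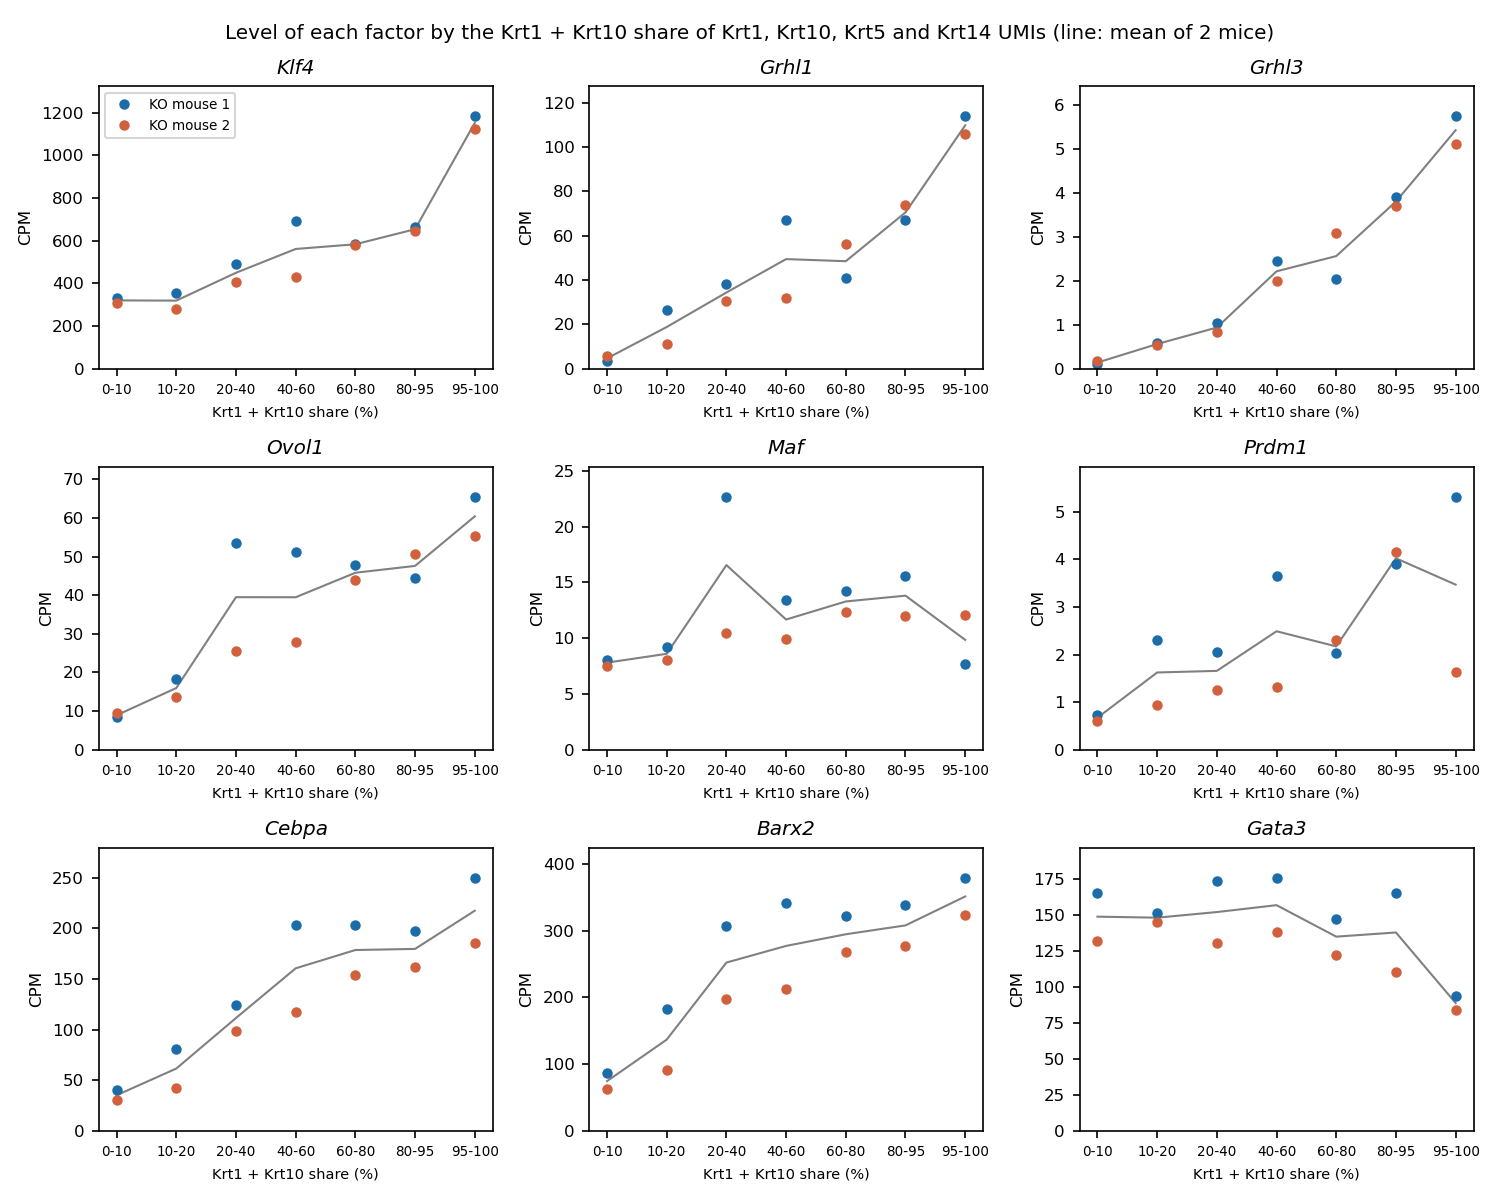
CPM of each factor (y axis, from 0) in IFE cells binned by the Krt1 and Krt10 share in percent (x axis), with a point per KO mouse and a line through the mean of 2 mice. By the mean of 2 mice, Barx2, Cebpa and Ovol1 are past 50% of their highest bin at 20 to 40%. These genes and Klf4, Grhl1 and Grhl3 are all highest in the last bin, and Gata3 is lowest there.

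By the same 50% rule over the IFE classes (without the dividing one), the onset fell at resting basal for 1 factor (Gata3), at transition for 4 (Ovol1, Maf, Cebpa and Barx2), at differentiated for 3 (Klf4, Grhl1 and Grhl3) and at terminally differentiated for 1 (Prdm1). Grhl3 was at 41.1% of its highest class in transition cells and would move to transition in mouse 1 alone, where that share was 56.3%. In cells thinned to 3000 UMIs, which left 27 of 48 and 48 of 62 terminally differentiated cells, Ovol1 stood at 49.3% and Maf at 39.1% in transition cells, which left 2 factors (Cebpa and Barx2) with onset there.

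In the follicle and gland classes the 9 factors did not move together. Upper follicle-like cells, a class led by Krt79, which marks the follicle's opening, and also by Krt75 and Krt25, had 7 of the 9 higher than resting basal cells and none lower, with 48.9% of all genes called and 25.6% called higher. Grhl3 had its highest level of all 16 classes there, at 7.997 and 7.33 CPM from 62 and 63 UMIs, above both differentiated values (5.32 and 6.28 CPM). Over both mice its ratio to resting basal cells was 101, with a counting interval of 33.7 to 496 (edgeR adjusted p = 2.4e-08). Grhl1 was at 157 and 123 CPM there, overlapping the differentiated level. Cebpa was at 367 and 275 CPM (3.16 ± 0.23, edgeR adjusted p = 9.3e-10), Barx2 at 562 and 468 CPM (3.00 ± 0.18, adjusted p = 7.9e-11), Ovol1 at 46.4 and 44.7 CPM (2.18 ± 0.20, adjusted p = 2.9e-08), Maf at 26.1 and 27.5 CPM (1.73 ± 0.21, adjusted p = 8.8e-07) and Prdm1 at 14.3 and 9.43 CPM (4.49 ± 0.45, adjusted p = 8.1e-08). Klf4 (406 and 345 CPM) and Gata3 (194 and 183 CPM) were not called. Suprabasal markers summed to 10650 and 12970 CPM in this class, above the 4247 and 5237 CPM of resting basal cells and below the 40250 and 36140 CPM of transition cells. Inner root sheath and hair shaft markers summed to 435 and 890 CPM in it, against 1123 and 839 CPM in the class of that name. Hair follicle progenitor markers summed to 10340 and 7364 CPM, more than the 5310 and 4996 CPM in the hair follicle progenitor-like class. By Krt75, Krt25 and the inner root sheath and hair shaft markers, the class was not made of cells of the follicle's opening alone. The progenitor markers do not show which cells it held, and the levels were not split by part.

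Sebaceous-like cells had Cebpa and Grhl1 without Grhl3. The 7 upper follicle markers summed to 5459 and 4576 CPM in this class, against 150.1 and 149.6 CPM in resting basal cells. In upper follicle-like cells they summed to 12780 and 8128 CPM. The part of upper follicle-like cells in the levels below was not tested. Of the 9 factors, 6 were higher and 2 lower than in resting basal cells, with 54.7% of all genes called, 26.9% higher and 27.8% lower. Cebpa was at 819 and 537 CPM, its highest level of all classes (4.47 ± 0.24, edgeR adjusted p = 7.2e-12), and was found in 100% and 99.3% of cells. Grhl1 was at 152 and 100 CPM (4.99 ± 0.24, edgeR adjusted p = 1.2e-12) and Ovol1 at 60.8 and 47.7 CPM (2.64 ± 0.22, adjusted p = 5.4e-09). No Grhl3 UMI was found in 98 and 148 cells, where 3 counts would be 1.34 and 0.986 CPM, below the level in differentiated and upper follicle-like cells. Klf4 was at 54.6 and 47.0 CPM (-2.67 ± 0.14, edgeR adjusted p = 4.2e-12), and Maf at 1.79 and 1.97 CPM (-1.86 ± 0.46, adjusted p = 0.0018). The Klf4 level overlapped that of the whole melanocyte-like class (42.8 and 54.6 CPM). It lay above the 25.8 and 30.3 CPM of the larger melanocyte-like cluster and below the 71.45 and 97.6 CPM of the smaller, keratin-richer cluster. Gata3 was at 225 and 179 CPM (0.48 ± 0.16, edgeR adjusted p = 0.018), Barx2 at 127 and 148 CPM (1.32 ± 0.18, adjusted p = 5.2e-06) and Prdm1, from 21 and 12 UMIs, at 9.39 and 3.94 CPM (3.82 ± 0.63, adjusted p = 3.4e-05). With cells under 5% mitochondrial UMIs, Gata3 (0.26, edgeR adjusted p = 0.25) and Prdm1 (1.81, adjusted p = 0.32) were not called.

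Hair follicle progenitor-like cells (1615 cells, led by Sfrp1, Tbx1, Lgr5 and Sox9) had the highest Barx2 level of the named classes. Barx2 was at 720 and 605 CPM in them (3.39 ± 0.18, edgeR adjusted p = 2.9e-11) and in 99.1% and 97.8% of cells. In all, 5 factors were higher and 3 lower than in resting basal cells, where 35.6% of all genes were called. Prdm1 was at 18.9 and 15.5 CPM, from 117 and 146 UMIs against 8 and 10 (5.05 ± 0.43, edgeR adjusted p = 1.8e-08). Grhl1 was at 28.2 and 22.7 CPM (2.48 ± 0.24, edgeR adjusted p = 1.3e-07), Cebpa at 128 and 117 CPM (1.80 ± 0.22, adjusted p = 2.5e-06) and Maf at 17.2 and 15.8 CPM (1.06 ± 0.22, adjusted p = 6.7e-04). Klf4, at 181 and 169 CPM, Ovol1, at 2.43 and 5.20 CPM, and Gata3, at 116 and 104 CPM, were lower (log2 fold changes -1.08, -1.28 and -0.59, edgeR adjusted p = 5.2e-07, 0.0013 and 0.0062). Maf was not called with cells under 5% mitochondrial UMIs (0.82, edgeR adjusted p = 0.12). The median mitochondrial share was 4.80% and 4.46% in this class and 6.24% and 5.62% in resting basal cells, and its part in these differences was not tested.

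Hair matrix-like cells, led by Shh, had 2 factors higher and 3 lower than resting basal cells, with 34.5% of all genes called. Klf4 was at 101 and 98.5 CPM (-1.95 ± 0.13, edgeR adjusted p = 5.3e-10), Ovol1 at 3.27 and 3.30 CPM (-1.63 ± 0.34, adjusted p = 9.2e-04) and Barx2 at 37.4 and 34.0 CPM (-0.88 ± 0.20, adjusted p = 0.0016). Grhl1 was higher at 12.5 and 9.24 CPM (1.18 ± 0.31, edgeR adjusted p = 0.0059). Grhl3 was called higher from 3 and 6 UMIs (0.891 and 0.990 CPM, edgeR adjusted p = 0.011), but not against the H19-led basal cluster alone (1.90, adjusted p = 0.13). Grhl1 and Barx2 were not called with cells under 5% mitochondrial UMIs (log2 fold changes 0.92 and -0.68, edgeR adjusted p = 0.13 and 0.11). With the mouse as a block, Cebpa (60.3 and 42.1 CPM, log2 fold change 0.47, edgeR adjusted p = 0.0018) and Gata3 (153 and 112 CPM, -0.39, adjusted p = 8.2e-04) were also called.

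The inner root sheath and hair shaft-like class (Krt28, Krt35 and Krt27) had 4 factors higher and 2 lower, with 55.3% of all genes called. Its own 11 markers summed to 1123 and 839 CPM. The 9 hair matrix markers summed to 630 and 519 CPM in it, 849 and 860 CPM in hair matrix-like cells and 205 and 222 CPM in resting basal cells. The 14 division markers summed to 3817 and 4287 CPM, against 679 and 766 CPM in resting basal cells. Mki67 was found in 87.2% and 91.4% of its cells, so most of the class carried a division marker. The part of division and of hair matrix-like cells in these differences was not tested. Ovol1 was at 26.8 and 32.3 CPM (1.63 ± 0.21, edgeR adjusted p = 2.3e-06) and Grhl1 at 35.1 and 29.0 CPM (2.85 ± 0.24, adjusted p = 9.0e-09). Barx2 had its lowest mean of the 16 classes here, at 15.9 and 22.7 CPM (-1.63 ± 0.20, edgeR adjusted p = 1.5e-06), and Klf4 was at 73.2 and 63.3 CPM (-2.41 ± 0.13, adjusted p = 1.0e-11). Gata3, which is known to act in the inner root sheath, was at 185 and 170 CPM, and its log2 fold change over resting basal cells was 0.13 ± 0.16 (edgeR adjusted p = 0.50). Cebpa (61.0 and 46.5 CPM, adjusted p = 0.028) and Grhl3 (3 and 4 UMIs, adjusted p = 0.033) were called higher by edgeR. Neither was called against the H19-led basal cluster alone (0.41 and 1.24, edgeR adjusted p = 0.16 and 0.32).

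**Figure D4:**
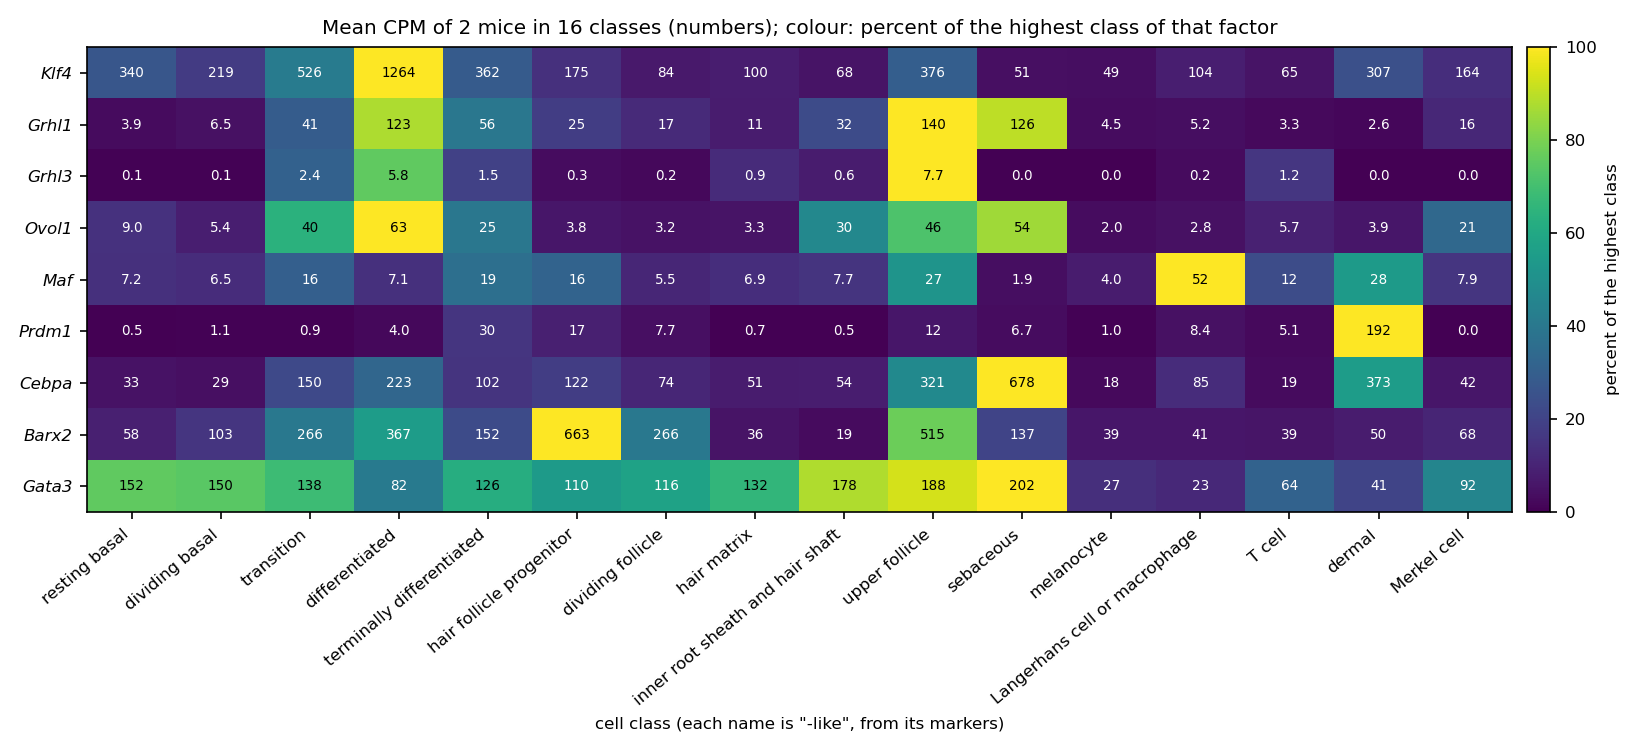
Mean CPM of 2 mice of each factor (rows) in the 16 named classes (columns) as numbers, coloured by the percent of that factor's highest class. The brightest cells are in differentiated (Klf4, Ovol1), upper follicle-like (Grhl1, Grhl3), hair follicle progenitor-like (Barx2), sebaceous-like (Cebpa, Gata3), dermal-like (Prdm1) and Langerhans cell or macrophage-like classes (Maf).

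Ordered over the 16 classes by mean CPM, the factors had different leading classes. Klf4 led in differentiated cells (1264 ± 11.4 CPM, SD, n = 2 mice), and transition came next (526 ± 77.1) without overlap of the mice. For Grhl1 the first 3, upper follicle-like (140 ± 24.4 CPM), sebaceous-like (126 ± 36.4) and differentiated (123 ± 7.29), overlapped, and the terminally differentiated class (55.6 ± 4.89) lay below them. For Gata3 the first 3, sebaceous-like (202 ± 32.4 CPM), upper follicle-like (188 ± 7.23) and inner root sheath-like (178 ± 10.7), overlapped as well. Outside KCs, Maf led in Langerhans cell or macrophage-like cells (54.4 and 49.3 CPM), and Cebpa was at 397 and 350 CPM in dermal-like cells. Gata3, a factor also of T helper cells, was at 64.4 and 62.9 CPM in T cell-like cells.

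Among the unnamed clusters, the one led by Ccl27a, Slco2a1 and Defb1 held 313 and 235 CPM of Barx2 and 248 and 205 CPM of Gata3. It was nearest to the basal list (mean log2 enrichment 0.32, under the limit for a name). Its Barx2 level overlapped that of transition cells (314 and 219 CPM), and Grhl1 (21.7 and 19.9 CPM) and Cebpa (86.0 and 61.7 CPM) lay between resting basal and transition cells. Ovol1 (8.87 and 13.2 CPM) overlapped resting basal cells, and Klf4 (299 and 257 CPM) lay below them. The one led by Ncam1, Bdnf and Sema3e held 655 and 550 CPM of Barx2, 67.4 and 56.7 CPM of Grhl1 and 27.3 and 19 CPM of Prdm1. Neither level of Barx2 overlapped that of resting basal cells.

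Likeness of pattern was described by Pearson's r of log2(CPM + 10) over the 16 classes, across 6112 genes reaching 50 CPM in any class. The classes share 2 libraries and differ in depth. Among the 36 pairs of the 9 factors, Grhl1 and Ovol1 were the most alike (r = 0.89), followed by Grhl1 with Cebpa and with Grhl3 (both 0.69), and Maf and Gata3 the least (-0.41). The nearest genes to Klf4 were Ahnak (0.96), Endou (0.92) and the periplakin gene Ppl (0.90). Those nearest to Grhl3 were Pinlyp (0.94), Krt6a (0.93) and Bbox1 (0.92), of which Pinlyp and Bbox1 are leading genes of the upper follicle-like cluster. Grhl3 reached at most 7.66 CPM, below the 10 CPM added before the logarithm. With log2(CPM + 1), Krt6a and Bbox1 were no longer among its 3 nearest genes. Those nearest to Grhl1 were Polb, Hebp2 and Gid8 (0.94 to 0.95), to Ovol1 Esrp2 and Pim3 (0.93 and 0.89), and to Prdm1 Cyp26b1, Hhip and Cbfb (0.89 to 0.91). For Cebpa they were Stxbp3, Erlin1 and Rarres1 (0.84 to 0.88), for Maf Lrrk1, Il17ra and Irf5 (0.87 to 0.89), for Barx2 Fam234a, Rbms1 and Capns2 (0.83 to 0.85), and for Gata3 Plekha7, Hras and Gm16136 (all 0.90).

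Of 31 other transcription factors of KC differentiation, 29 were tested. In the step to transition 17 rose, 2 fell and 10 were not called, with a median log2 fold change of 0.55. Of all genes tested, 17.0% were called higher and 17.7% lower. The largest rises were of Zfp750, a barrier regulator (1.87 and 3.07 CPM to 83.4 and 93.2 CPM, 5.16 ± 0.27, edgeR adjusted p = 6.2e-11), of Foxn1, a differentiation factor of skin and thymus (4.47 ± 0.45, adjusted p = 3.2e-07), and of Ehf, whose call rested on 9 UMIs in transition and 1 in resting basal cells. Ovol2, a relative of Ovol1, fell from 26.0 and 14.6 to 7.71 and 4.16 CPM (-1.73 ± 0.39, edgeR adjusted p = 0.0019) while Ovol1 rose, and Trp63, the basal identity factor p63, fell from 215 and 170 to 125 and 115 CPM (-0.60 ± 0.15, adjusted p = 0.0041).

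In the step to differentiated cells 11 of the 29 rose and 8 fell, with a median of 0.37. Of all genes tested, 17.8% were called higher and 17.0% lower. Dlx5, a homeobox factor, rose (2.70 ± 0.34, edgeR adjusted p = 4.0e-06), as did the nuclear receptor gene Rora (80.8 and 54.4 to 252 and 219 CPM, 2.03 ± 0.27, adjusted p = 1.0e-05), and Elf5 was called from 6 UMIs against none. Grhl2, the grainyhead-like relative of Grhl1 and Grhl3, fell from 39.0 and 33.0 to 14.2 and 12.1 CPM (-1.24 ± 0.18, edgeR adjusted p = 2.0e-05) where Grhl1 and Grhl3 rose, and Trp63 fell further (-0.96 ± 0.17, adjusted p = 1.9e-04). Of 2 genes known as repressed by Ovol1 or Prdm1, Myc rose with Ovol1 from resting basal to transition cells (15.4 and 12.2 to 39.8 and 31.3 CPM, 1.44 ± 0.21, edgeR adjusted p = 2.6e-05) and fell in the terminally differentiated class, to 1 and 3 UMIs (-3.24 ± 0.64, adjusted p = 5.9e-04). Id2 was at 9.62 and 5.73 CPM in resting basal and 9.44 and 6.35 CPM in transition cells and was not called at any of the IFE steps.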

How the data were processed

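The epidermis of 2 mice of 1 group, Chrm3 KO, gave 1 single-cell library each. Per the labels and the study's methods, the authors aligned reads with Cell Ranger 3.0.2 to mm10 and deposited raw UMI counts per gene and barcode (10816 barcodes with 109756784 UMIs and 15867 with 166441732), not normalized. The libraries are given as Chromium v1 in one source and version 3.1 in the other. Neither gene copies nor overlapping genes were separated beyond that counting.

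Barcodes passed with at least 900 and at most 7700 genes detected and less than 10% of UMIs from mitochondrial genes. These cells were log-normalized, integrated on 2000 variable genes over 30 dimensions and clustered (Louvain, resolution 0.8) in Seurat 5.3.0 (R 4.3.3), with the 9 factors and the compared gene lists left out. A cluster was named "-like" where at least 3 markers of a list exceeded a log2 enrichment of 0.25 over the other cells and the list's mean was at least 0.5, the list with most markers among the 10 leading genes being taken first. A dividing cluster also needed a mean of 0.2 for a basal or follicle list. Clusters with the suprabasal name were split by their Krt5 and Krt14 level. The members, lists and tests were chosen with earlier results of these data known. Scrublet (scanpy 1.11.5) called 2 cells doublets in mouse 1 and 416 in mouse 2, so doublets stayed in and an alternative left out the 6% of cells with the highest scores in each mouse. Because names were rebuilt from markers, they may differ from the study's.

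UMI counts were summed per mouse and class, and 22 sums (11 KC classes) entered 1 edgeR 4.0.16 fit (TMM, filterByExpr, quasi-likelihood F-test, Benjamini-Hochberg over 12603 genes, 11 residual degrees of freedom, biological coefficient of variation 0.094). With 2 mice per class the test rests on the spread pooled over classes. DESeq2 1.42.0 was an alternative. On simulated counts the scripts recovered known changes of 1 fixed size, set in genes well expressed in the reference class. Changes of other sizes and in genes at low levels were not simulated. The same mouse gave every class, so sums pair by mouse: the correlation of mouse differences over 55 pairs of classes was -0.01 to 0.35 (median 0.11). All 9 factors, the 3 largest rises and 2 largest falls among other factors at the first and second step, Myc and Id2, and the 3 nearest genes by pattern were named. A pattern gene of Ovol1 is not reported here. Alternatives were other normalization, test, filter, clustering, doublet and mitochondrial limits, thinning to 3000 UMIs, each mouse alone, keratin share bins and, chosen after seeing the data, the H19-led cluster as the resting basal class, terminal cells with Lor at 1% of UMIs or more, and the doublet scores. Cebpd was not analysed here, and of the other factors Elf3 did not pass the filter. The 3′ tags do not resolve isoforms.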

Additional observations from a re-analysis of the deposited data

How the results depend on the processing

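Across 10 alternative fits of the 9 factors at 9 comparisons, 763 values kept their direction and their side of the threshold, 19 lost a call in the same direction, 7 gained one and 21 turned direction, all 21 being values that were not called. The cause was not tested. With cells under 5% mitochondrial UMIs, fewer cells entered every sum and 11507 genes were tested. Of these, 675 were called in dividing basal, 2131 in transition and 2145 in hair follicle progenitor-like cells against resting basal cells. In hair matrix-like, upper follicle-like and sebaceous-like cells 2026, 3747 and 4274 were called. Of the 9 factors, 0 were called in dividing basal and 3 in hair matrix-like cells. In dividing basal cells 77.8% of calls were then higher, 43.3% with no filter on low counts and 53.4% in the fit as reported. With no filter, 5 of the 9 factors and 2984 of 19504 genes were called there. In terminal cells with at least 1% Lor, 1795 genes were called, 33.0% of them higher against 49.4%, and the median of all genes moved to -0.54. The replicate block (the mouse) changed no call but Cebpa (0.47) and Gata3 (-0.39) in hair matrix-like cells.

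Turned values, as log2 fold changes, were as follows. Under the 5% limit they were -0.12 (Grhl1) and 2.64 (Grhl3) in dividing basal, 0.045 (Gata3) in transition, -4.24 in hair matrix-like and -0.23 in inner root sheath-like cells (Prdm1), 0.21 (Klf4) in upper follicle-like and 0 (Grhl3) in sebaceous-like cells. Klf4 in upper follicle-like cells was 0.0022 with DESeq2 size factors, 0.0025 with DESeq2, 0.0068 without Scrublet's doublets and 0.15 without the highest scores. Prdm1 was -0.52 and -1.32 in inner root sheath-like cells without Scrublet's doublets and the highest scores, and -0.072 in hair matrix-like cells without the highest scores. At resolution 1.2 values were -0.19 (Gata3, terminal), 1.196 (Grhl3, sebaceous-like), 0.11 (Maf, inner root sheath-like) and -0.056 (Prdm1, hair matrix-like). Grhl3 in sebaceous-like cells was 0.033 with DESeq2, Maf in inner root sheath-like cells 0.086 against the H19-led cluster, and Gata3 -0.34 in terminal cells rich in Lor. Onset at transition held for 2 factors in thinned cells, 7 in keratin share bins that are mostly transition cells, 4 to 5 with either mouse alone and 4 otherwise. With log2(CPM + 1), 21 of 27 pattern genes were named again.

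In each mouse alone there is 1 sum per class and no test. Every called fold change kept its sign in both mice. Fewer than 30 UMIs per mouse and class limit Grhl3 in IFE cells and Prdm1 up to the terminal class.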
